A study of Mus musculus with 21 samples.

Results

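Contractile myofibroblast genes are the 10 genes ACTA2, ACTG2, TAGLN, MYL9, CNN1, MYH11, TPM1, TPM2, CALD1 and MYOCD, taken by symbol, by a rule that uses no measured value, though with earlier results of these data known. All 10 were found in each of the 3 gene count tables, which together list 24540 symbols, 24447 of them shared. Symbols are written in capitals, as those tables give them, although every sample is from mouse. RNA-seq was carried out on 21 cultures of immortalized mouse fibroblasts in 7 groups of 3, made to ask what loss of the homeobox transcription factor Prrx1 does to fibroblasts of an embryo, a wound and a tumour. Mouse embryonic fibroblasts (MEFs), from embryos harvested between embryonic days 10 and 13, formed 3 groups, namely WT, mutant MEFs labelled KI_PRRX1 from mice of the 129S-Prrx1tm1Jfm/Mmmh strain, and MEFs carrying a CRISPR/Cas9 guide against Prrx1 (sgPrrx1). Fibroblasts from mouse dorsal wounds at day 10 formed a WT and an sgPrrx1 group, and so did fibroblasts cultured from breast tumours of MMTV-PyMT mice (MMTV-CAFs), in which the MMTV promoter drives the polyoma middle T oncogene in the mammary gland. MEFs and wound-healing fibroblasts are labelled C57BL/6 and MMTV-CAFs FVB, so that strain and tumour origin cannot be told apart in a comparison with MMTV-CAFs. The study's methods give the mutant mice as backcrossed to C57BL/6. Any remaining difference in background between mutant and other MEFs was not tested. All groups, WT included, were immortalized with human papillomavirus E6/E7 genes and grown in DMEM with 10% serum. WT is the control with a non-targeting guide where sgPrrx1 is compared with it, no ages of the adult mice are given in the labels, and both MEF groups with Prrx1 loss were set against the same 3 WT cultures. Nothing states whether the 3 replicates of a group are separate animals, clones or dishes, so each test measures only the spread between these samples, which may be technical. The cultures held between 69588655 and 134790440 gene counts each.

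Myofibroblasts are fibroblasts that have taken on part of the contractile apparatus of smooth muscle, and they pull on the matrix of healing wounds and of tumour stroma. In that apparatus, filaments of smooth muscle actin (ACTA2, ACTG2) are lined by tropomyosins (TPM1, TPM2) and by the actin-binding proteins transgelin (TAGLN), calponin (CNN1) and caldesmon (CALD1), and are pulled by myosin made of a heavy chain (MYH11) and a regulatory light chain (MYL9). Most of these genes are known targets of serum response factor, which binds a DNA element called the CArG box together with a coactivator, either myocardin (MYOCD) or the myocardin-related factors that respond to free actin. TPM1, TPM2 and CALD1 also encode isoforms found in most non-muscle cells, and gene-level counts do not separate those from the smooth muscle isoforms.

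Promoter sequences were available from RefSeq (GRCm38.p6) for 6 members, 7 promoters in all since CALD1 has 2 starts, and none was used here for ACTG2, TAGLN, MYH11 or MYOCD. In the 250 bases before each start, 5 motifs were looked for on both strands, and short windows around the matches of 2 of them, the elements best known from smooth muscle promoters, are shown with the match in capitals. The CArG box, the element read by serum response factor, was found in 1.47% of 32851 RefSeq promoters and in 1 of the 7 member promoters, that of MYL9, 161 to 152 bases before its start.
MYL9, chr2:156775293-156775322, plus strand: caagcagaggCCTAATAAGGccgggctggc
The letters CATTCC, the MCAT element read by TEAD factors, were present in 12.6% of all promoters and in 3 of the 7, in each case on the strand opposite the gene, so that the gene's own strand, which is printed, reads GGAATG. They lay 146 to 141 bases before the ACTA2 start, 56 to 51 before the TPM1 start and 153 to 148 before the first CALD1 start.
ACTA2, chr19:34255502-34255531, minus strand: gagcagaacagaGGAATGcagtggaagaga
TPM1, chr9:67049252-67049281, minus strand: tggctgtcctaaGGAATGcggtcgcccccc
CALD1, chr6:34598339-34598368, plus strand: gagcatgcctagGGAATGacaggcatctgc
The homeodomain core TAATTA was found in 4.84% of promoters and in none of the 7. CAGAC, the core of the element that SMAD proteins bind, was found in 42.2% of promoters and in those of ACTA2 and CALD1, and TATAAA in 12.4% and at the second CALD1 start. CNN1 and TPM2 held none of the 5 motifs in this window. The annotated ACTA2 and TPM1 genes have further starts upstream of the ones used, so these windows lie inside the gene spans. Sequence before those further starts was not searched in full, so a motif not found for ACTA2 or TPM1 may still lie there. A match describes letters only, and no binding was measured in these libraries.

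Prrx1 itself, the edited gene, was read first as a check of the labels. Levels are given in CPM, the count of a gene divided by the library total in units of 1e+06 counts, after TMM scaling over all 21 cultures, as mean ± SD of 3 cultures where not listed singly. PRRX1 was at 192, 166 and 184 CPM in the WT MEFs, 26.1, 20.7 and 19.9 in the mutant MEFs and 126, 94.9 and 140.5 in the sgPrrx1 MEFs. It fell from 147 ± 4.68 to 64.9 ± 0.578 CPM in wound-healing fibroblasts and from 632 ± 4.63 to 306 ± 4.39 in MMTV-CAFs. No loss culture overlapped its WT range, and PRRX1 passed the test in every comparison (edgeR quasi-likelihood test with Benjamini-Hochberg adjustment over all genes tested, adjusted p = 6.83e-06, 0.0145, 1.72e-09 and 7.22e-10 in the order mutant MEF, sgPrrx1 MEF, sgPrrx1 wound and sgPrrx1 MMTV-CAF). The remaining PRRX1 RNA was 12.3%, 66.6%, 44.1% and 48.4% of WT in that order.

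In WT cultures the 10 genes together held 7225 ± 466 CPM in MEFs, 7388 ± 162 in wound-healing fibroblasts and 5774 ± 85.1 in MMTV-CAFs. Compared per kilobase of exon, the most abundant member was ACTA2, smooth muscle alpha actin and the standard myofibroblast marker, in WT MEFs (2376 CPM per kb) and in WT MMTV-CAFs (1183). TAGLN, an actin-binding protein of smooth muscle, led in WT wound-healing fibroblasts at 1105 CPM per kb, ahead of ACTA2 at 909. MYOCD and MYH11, which mark mature smooth muscle, were close to absent in all groups, so that the cultures carried the myofibroblast members of the program without its most muscle-restricted ones. The contractile label of the set was read from ACTA2, ACTG2, TAGLN, MYL9 and CNN1, all present in every WT culture, since the muscle and non-muscle isoforms of TPM1, TPM2 and CALD1 cannot be told apart in gene counts. No 100-base window of any member was shared with a protein-coding transcript of another gene.

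Against WT, members were mostly lower after Prrx1 loss, but not in all cell types alike. Of 9 members tested in mutant MEFs, 6 were lower and 3 higher, while 30.5% of all 13616 genes tested were called lower and 29.4% higher. In sgPrrx1 MEFs 6 of 9 were lower and 1 higher, against 22.8% and 20.3% of all genes. In sgPrrx1 wound-healing fibroblasts 8 of 8 tested were lower and none higher, against 39.3% and 38.3%, and in sgPrrx1 MMTV-CAFs all 10 were lower, against 41.9% and 41.2%. With all 21 cultures in one model 6 were lower in wound-healing fibroblasts, where TPM1 and CALD1 lost their calls (adjusted p = 0.386 and 0.671), and 8 in MMTV-CAFs, beside 27.9% and 32.8% of all genes lower in that model. Between 43.1% and 83.1% of all genes passed the test in a comparison, so the size of a change says more than the call. The median log2 fold change of the members tested was -0.82, -1.05, -0.64 and -2.88 in mutant MEFs, sgPrrx1 MEFs, wound-healing fibroblasts and MMTV-CAFs, while the median over all genes lay between -0.003 and 0.0094. MYH11 in both MEF models and MYOCD in MMTV-CAFs passed the filter on low counts only through WT, so they had to differ. Without them, 5 of 8 were lower and 3 higher in mutant MEFs, 5 of 8 lower and 1 higher in sgPrrx1 MEFs, and 9 of 9 lower in MMTV-CAFs. In bulk RNA, fewer cells of a contractile type and less RNA in each cell cannot be told apart.

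**Figure D1:**
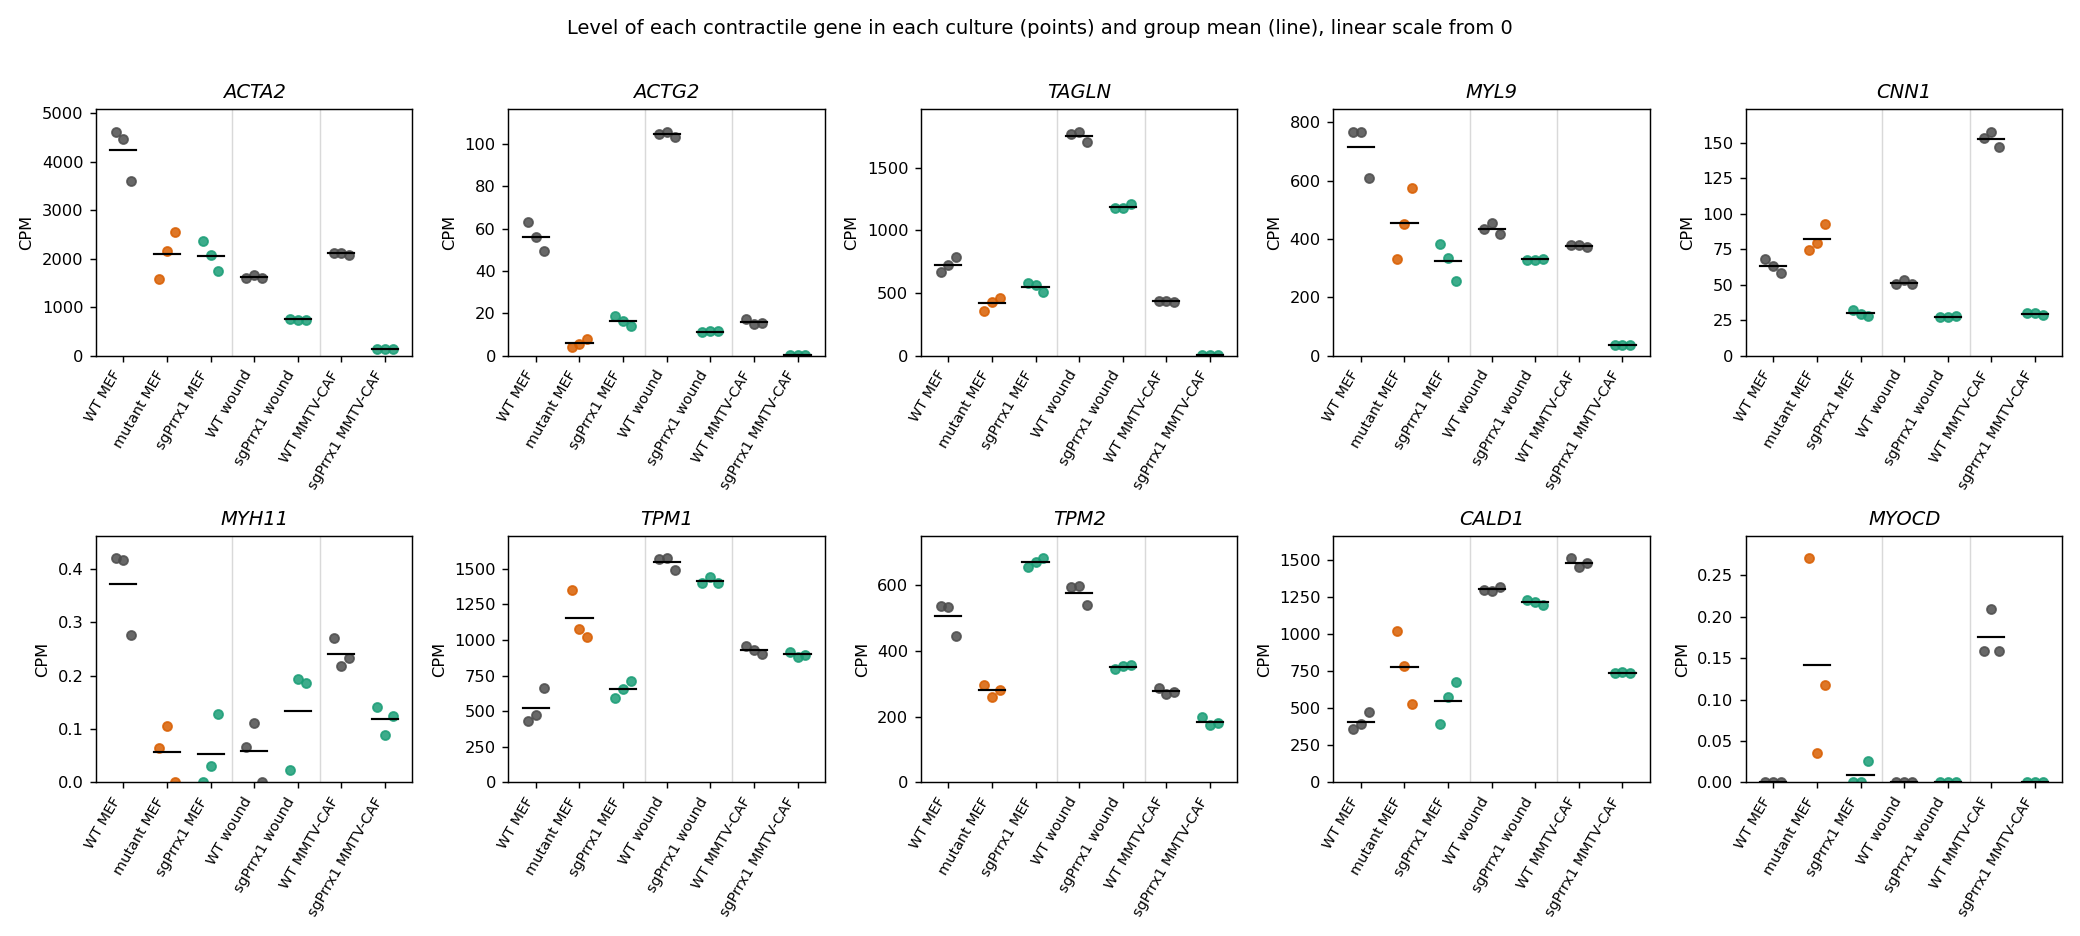
Level of each of the 10 contractile genes (vertical axis, CPM on a linear scale from 0) in the 7 groups of fibroblast cultures. Each point is a culture and each line a group mean of 3, and the sgPrrx1 MMTV-CAFs sit near 0 for ACTG2 and TAGLN while their TPM1 lies beside WT.

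ACTA2 (chr19:34240336-34255585, minus strand, GRCm38.p6 as are the positions that follow) was at 4623, 4468 and 3603 CPM in WT MEFs, 1571, 2156 and 2549.9 in mutant MEFs and 2363, 2075 and 1754 in sgPrrx1 MEFs. Both kinds of Prrx1 loss left about the same amount, 49.5% and 48.8% of the WT mean, with every culture below the lowest WT culture (log2 fold change -1.04 ± 0.18, edgeR adjusted p = 0.00265 in mutant MEFs; log2 fold change -1.05 ± 0.14, edgeR adjusted p = 0.00156 in sgPrrx1 MEFs). In wound-healing fibroblasts ACTA2 was at 1597, 1667 and 1593 CPM in WT and 758, 740.4 and 736 in sgPrrx1 cultures, a fall of 2.18-fold (log2 fold change -1.12 ± 0.021, edgeR adjusted p = 7.75e-10). MMTV-CAFs went from 2126, 2111 and 2084 to 137, 139.6 and 142 CPM. That is 15.3-fold lower (log2 fold change -3.93 ± 0.018, edgeR adjusted p = 9.29e-12), and it was the lowest ACTA2 level of the 7 groups. In the order of group means, WT MEFs stood highest, followed by WT MMTV-CAFs, mutant MEFs and sgPrrx1 MEFs, whose ranges overlapped each other. Next came WT wound-healing fibroblasts, sgPrrx1 wound-healing fibroblasts and sgPrrx1 MMTV-CAFs. The range of WT wound-healing fibroblasts lay within that of mutant MEFs.

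ACTG2 (chr6:83512909-83536251, minus strand), the gamma smooth muscle actin known from gut and bladder muscle, showed the largest proportional fall of the members in mutant MEFs and in wound-healing fibroblasts. It was at 62.9, 56.2 and 49.4 CPM in WT MEFs, 4.17, 5.5 and 7.66 in mutant and 18.6, 16.1 and 14.2 in sgPrrx1 MEFs (log2 fold change -3.31 ± 0.23, edgeR adjusted p = 3.49e-05, and log2 fold change -1.80 ± 0.13, edgeR adjusted p = 0.000107). No loss culture came near the WT range in either. WT wound-healing fibroblasts held the most ACTG2 of any group, 105, 106 and 104 CPM, and their sgPrrx1 counterparts 11.1, 11.5 and 11.4, 9.25-fold lower (log2 fold change -3.21 ± 0.028, edgeR adjusted p = 2.11e-11). In MMTV-CAFs the level dropped from 17.1, 15.0 and 15.6 to 0.284, 0.244 and 0.205 CPM (32, 33 and 23 counts), 65.5-fold lower (log2 fold change -6.03 ± 0.10, edgeR adjusted p = 1.04e-09). Its order ran from WT wound-healing fibroblasts through WT MEFs to sgPrrx1 MEFs and WT MMTV-CAFs, which overlapped, then sgPrrx1 wound, mutant MEFs and sgPrrx1 MMTV-CAFs.

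TAGLN (chr9:45929628-45936058, minus strand), or SM22-alpha, an early marker of smooth muscle that binds actin filaments, had the widest fold range between groups of the 8 members with counts in every culture. It was lower in mutant MEFs, 358, 428 and 463 CPM against 664, 727 and 783 in WT, and less so in sgPrrx1 MEFs, 580.1, 562 and 507 CPM (log2 fold change -0.82 ± 0.11, edgeR adjusted p = 0.000744 and log2 fold change -0.41 ± 0.087, edgeR adjusted p = 0.00886). The sgPrrx1 MEF range ended below the lowest WT culture, although only by a narrow margin, and the call was lost without replicate 2 of both groups (adjusted p = 0.122). Wound-healing fibroblasts fell from 1766, 1789 and 1703 to 1176, 1179 and 1209 CPM (log2 fold change -0.57 ± 0.022, edgeR adjusted p = 4.36e-08). In MMTV-CAFs TAGLN went from 438, 432 and 429 to 1.54, 1.23 and 1.07 CPM, or 0.296% of WT (log2 fold change -8.42 ± 0.12, edgeR adjusted p = 3.92e-10). The 3 edited cultures shared this near absence, at levels 343-fold lower than WT, while the lowest sgPrrx1 culture of the other cell types was at 507 CPM. From high to low the groups were WT wound, sgPrrx1 wound, WT MEF, sgPrrx1 MEF, WT MMTV-CAF and mutant MEF, the last of these overlapping WT MMTV-CAFs, and sgPrrx1 MMTV-CAF.

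CNN1 (chr9:22099221-22109221, plus strand), basic calponin, an inhibitor of the myosin ATPase on smooth muscle filaments, lay on opposite sides of WT in the MEF models, as did TPM2. It stood at 68.1, 63.2 and 58.0 CPM in WT MEFs, 74.3, 79.2 and 93.0 in mutant MEFs and 32.4, 29.1 and 27.7 in sgPrrx1 MEFs. Neither loss group overlapped WT, one lying above it (log2 fold change 0.36 ± 0.11, edgeR adjusted p = 0.0229) and the other below (log2 fold change -1.10 ± 0.092, edgeR adjusted p = 0.000199). The rise in mutant MEFs lost its call without either WT replicate 2 or 3 (adjusted p = 0.0701 and 0.0689) and without either mutant replicate 2 or 3 (0.0506 and 0.0561), and the CNN1 value is therefore uncertain there. CNN1 dropped from 50.4, 53.4 and 50.1 to 27.5, 27.4 and 27.6 CPM in wound-healing fibroblasts (log2 fold change -0.90 ± 0.032, edgeR adjusted p = 2.83e-08) and from 153, 158 and 147 to 30.3, 29.7 and 28.6 in MMTV-CAFs (log2 fold change -2.39 ± 0.037, edgeR adjusted p = 6.7e-10). WT MMTV-CAFs held the most CNN1 of any group, mutant MEFs came next, followed by WT MEFs and WT wound-healing fibroblasts, and the 3 sgPrrx1 groups were lowest, those of MEFs and MMTV-CAFs overlapping.

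CALD1 (chr6:34598495-34775469, plus strand), caldesmon, which holds back myosin from actin and has a heavy smooth muscle and a light non-muscle form, did not follow the actins in MEFs. It was at 359, 390.3 and 474 CPM in WT, 1020.0, 785 and 525 in mutant and 395, 577 and 675 in sgPrrx1 MEFs. All mutant cultures lay above WT, but spread widely (log2 fold change 0.91 ± 0.24, edgeR adjusted p = 0.0154), and without WT replicate 1 or 2 the adjusted p was 0.0557 or 0.0503. The sgPrrx1 MEF range overlapped WT and the difference did not pass (log2 fold change 0.42 ± 0.20, edgeR adjusted p = 0.129), although it did without sgPrrx1 replicate 1, at 0.61 with adjusted p = 0.0164. In wound-healing fibroblasts CALD1 was at 1296, 1293 and 1314 CPM in WT and 1227, 1218 and 1195 after editing (log2 fold change -0.10 ± 0.013, edgeR adjusted p = 8.53e-05), a call that reversed to 0.0098 with adjusted p = 0.559 when only library totals set the scale. The MMTV-CAFs fell by more, from 1511, 1451 and 1481 to 737, 742 and 736 CPM (log2 fold change -1.02 ± 0.017, edgeR adjusted p = 7.88e-10). CALD1 was highest in WT MMTV-CAFs, then in WT and sgPrrx1 wound-healing fibroblasts. It was lowest in sgPrrx1 and WT MEFs, which overlapped. Mutant MEFs and sgPrrx1 MMTV-CAFs lay between and overlapped each other, and mutant MEFs overlapped sgPrrx1 MEFs too.

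TPM1 (chr9:67022590-67049672, minus strand), alpha tropomyosin, which lines actin filaments, rose in mutant MEFs, from 429, 471 and 665 CPM in WT to 1352, 1077 and 1024 (log2 fold change 1.12 ± 0.19, edgeR adjusted p = 0.00225). The sgPrrx1 MEFs, at 591, 654 and 713 CPM, overlapped WT and did not pass (log2 fold change 0.31 ± 0.17, edgeR adjusted p = 0.17), while without WT replicate 3, the highest of the WT cultures, the value was 0.52 with adjusted p = 0.00817. Editing hardly moved TPM1 in the other cell types. It was at 1572, 1575 and 1493 CPM in WT and 1399, 1442 and 1398 in sgPrrx1 wound-healing fibroblasts (log2 fold change -0.13 ± 0.024, edgeR adjusted p = 0.000747), and with library totals alone the change was -0.02 with adjusted p = 0.405. In MMTV-CAFs it was at 958, 931 and 902 CPM in WT and 917, 882 and 896 after editing, ranges that overlapped. The small difference passed (log2 fold change -0.069 ± 0.027, edgeR adjusted p = 0.0401) but reversed to 0.064 with adjusted p = 0.049 with library totals alone, and was lost without WT replicate 1 or 2 (adjusted p = 0.135 and 0.0676) or sgPrrx1 replicate 2 or 3 (0.15 and 0.111). TPM1 was highest in WT wound-healing fibroblasts, followed by sgPrrx1 wound and mutant MEFs, then by both MMTV-CAF groups, which overlapped, and by sgPrrx1 and WT MEFs, which overlapped too.

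TPM2 (chr4:43513726-43523583, minus strand), beta tropomyosin, moved in opposite directions in the MEF models. WT MEFs held 538, 533 and 446 CPM, mutant MEFs 297, 260.2 and 282 and sgPrrx1 MEFs 656, 672 and 683. No ranges overlapped, the mutant lying below WT (log2 fold change -0.88 ± 0.11, edgeR adjusted p = 0.000503) and the sgPrrx1 cultures above (log2 fold change 0.39 ± 0.087, edgeR adjusted p = 0.0107, lost without replicate 2 of both groups, adjusted p = 0.122). TPM2 fell in wound-healing fibroblasts from 593, 597 and 541 to 343, 354 and 356 CPM (log2 fold change -0.72 ± 0.038, edgeR adjusted p = 2.92e-07) and in MMTV-CAFs from 286, 270.2 and 274 to 199, 175 and 179 (log2 fold change -0.61 ± 0.049, edgeR adjusted p = 7.95e-06). The sgPrrx1 MEFs thus held the most TPM2 of the 7 groups, ahead of WT wound, WT MEF and sgPrrx1 wound cultures, with mutant MEFs and WT MMTV-CAFs overlapping below them and sgPrrx1 MMTV-CAFs lowest.

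MYL9 (chr2:156775408-156781657, plus strand) encodes the regulatory light chain whose phosphorylation starts contraction. It was at 769, 767 and 609 CPM in WT MEFs, 332, 452 and 576 in mutant and 383, 334 and 257 in sgPrrx1 MEFs, both loss groups below the WT range. The change in sgPrrx1 MEFs (log2 fold change -1.15 ± 0.16, edgeR adjusted p = 0.00173) kept its call under every alternative, unlike that in mutant MEFs (log2 fold change -0.68 ± 0.20, edgeR adjusted p = 0.0202), where the adjusted p rose to 0.0633 without WT replicate 1, 0.0631 without WT replicate 2 and 0.0599 without mutant replicate 2. Wound-healing fibroblasts went from 436, 454 and 417 to 328, 329 and 331 CPM (log2 fold change -0.41 ± 0.031, edgeR adjusted p = 2.97e-06) and MMTV-CAFs from 379, 379 and 374 to 36.9, 37.6 and 36.9 (log2 fold change -3.36 ± 0.019, edgeR adjusted p = 1.42e-11). In MMTV-CAFs this was 10.3-fold lower, and the lowest culture of any other group was at 257 CPM. The order ran WT MEF, mutant MEF and WT wound (overlapping), WT MMTV-CAF, sgPrrx1 wound and sgPrrx1 MEF (overlapping), and sgPrrx1 MMTV-CAF. Mutant and sgPrrx1 MEFs also overlapped each other and WT MMTV-CAFs.

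MYH11 (chr16:14194527-14292188, minus strand), the smooth muscle myosin heavy chain, was near the limit of detection, and its counts are given in place of CPM. WT MEFs had 29, 29 and 24 counts, mutant MEFs 5, 9 and 0 and sgPrrx1 MEFs 0, 2 and 10. Both losses were called lower (log2 fold change -2.62 ± 0.70, edgeR adjusted p = 0.0154, and log2 fold change -2.71 ± 0.77, edgeR adjusted p = 0.0275), the second of them lost without WT replicate 1 or 2 (adjusted p = 0.0732 and 0.0789) or sgPrrx1 replicate 2 (0.102) and the first without replicate 1 of both groups (0.0768). Wound-healing fibroblasts had 6, 9 and 0 counts in WT and 2, 18 and 14 after editing, too few for the filter. These ranges overlapped, and the ratio of the group sums was 2.27, with an exact Poisson interval of 1.21 to 4.5 that covers counting error only. MMTV-CAFs had 29, 25 and 31 counts in WT and 16, 12 and 14 in sgPrrx1 cultures (log2 fold change -1.05 ± 0.29, edgeR adjusted p = 0.00939). All of these are traces of RNA, and the MMTV-CAF call was lost with all 21 cultures in one model (adjusted p = 0.269).

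MYOCD (chr11:65173608-65269989, minus strand), the coactivator that switches on the smooth muscle genes together with serum response factor, was detected in few cultures. WT MMTV-CAFs had 17, 24 and 21 counts and sgPrrx1 MMTV-CAFs 0 in each, which is at least 21-fold lower with a floor of 3 counts over the group (edgeR adjusted p = 0.000221). A count of 0 allows up to 0.00833 CPM over those 3 cultures. In MEFs MYOCD was at 0 in each WT culture and at 21, 3 and 8 counts in the mutant, at least 10.4-fold higher by the same floor but too sparse to be tested. Replicate 1 holds 21 of those 32 counts, without it the bound was 5.41-fold, and the exact Poisson lower limit of the ratio over all 3 was 8.01, for counting error only. The sgPrrx1 MEFs had 0, 0 and 2 counts, and all 6 cultures of wound-healing fibroblasts had none, which allows up to 0.0116 CPM in either group. MYOCD was thus detected in WT MMTV-CAFs and mutant MEFs, and in sgPrrx1 MEFs at 2 counts.

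**Figure D2:**
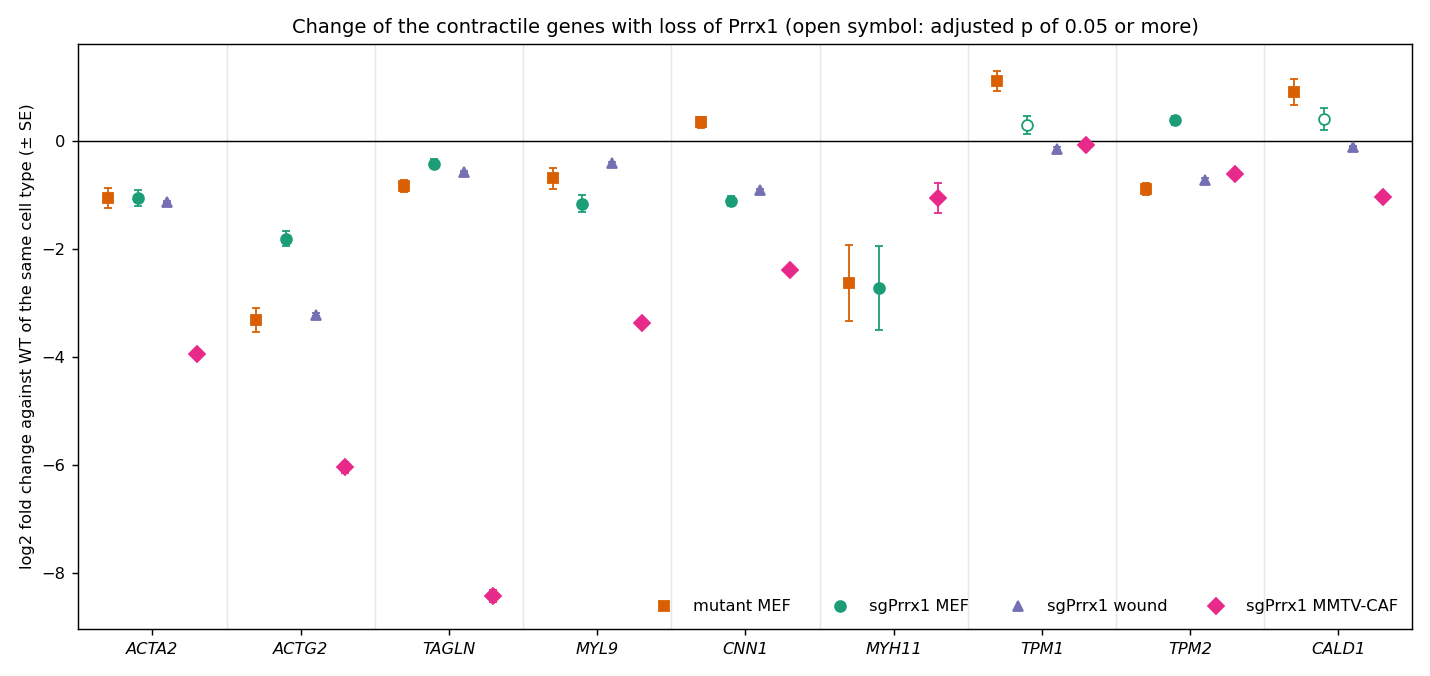
Change of 9 contractile genes after Prrx1 loss against WT of the same cell type. The vertical axis gives the log2 fold change from edgeR (bars ± SE, 3 cultures against 3). Open symbols mark an adjusted p of 0.05 or above. The MMTV-CAF points lie far below those of the other groups for TAGLN, ACTG2, ACTA2 and MYL9. The small TPM1 and CALD1 changes in wound-healing fibroblasts, and that of TPM1 in MMTV-CAFs, lose their call or reverse with library totals alone.

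Whether editing of Prrx1 changed the genes to a different extent in the 3 cell types was tested directly, as the difference of the log2 fold changes of sgPrrx1 against WT in one model of all 21 cultures. Compared with wound-healing fibroblasts, the fall was deeper in MMTV-CAFs for 6 of 10 members and shallower for none, against 31.5% of 15093 genes lower and 31.5% higher in this contrast. The difference was largest for TAGLN, at -7.84 ± 0.16, edgeR adjusted p = 4.43e-17. It was -2.94 ± 0.22, edgeR adjusted p = 1.52e-09 for MYL9, -2.81 ± 0.26, edgeR adjusted p = 2.99e-08 for ACTG2 and -2.79 ± 0.19, edgeR adjusted p = 4.29e-10 for ACTA2. CNN1 (-1.47) and CALD1 (-0.90) also fell further, the latter losing its call without replicate 2 of all groups (adjusted p = 0.104), whereas TPM1 (0.08), TPM2 (0.13) and MYH11 did not pass (adjusted p = 0.732, 0.255 and 0.13). For the loss of PRRX1 RNA itself the same difference was 0.13 and did not pass (adjusted p = 0.477). It did pass in the contrasts with MEFs that follow. There it was -0.46 for MMTV-CAFs (edgeR adjusted p = 0.0168) and -0.59 for wound-healing fibroblasts (edgeR adjusted p = 0.00332).

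Compared with MEFs, the log2 fold change after editing was lower in MMTV-CAFs for 8 members and higher for none, against 28.7% and 27.4% of all genes, and for 7 of 8 without the sparse MYOCD and MYH11. The difference was -8.00 for TAGLN, -4.23 for ACTG2, -2.88 for ACTA2 and -2.21 for MYL9. It was -1.43 for CALD1, -1.29 for CNN1 and -0.99 for TPM2, and MYOCD, with no WT counts in MEFs, entered the model only through the groups where it was high, so that its call (adjusted p = 0.0203) had to follow. TPM1 did not pass (adjusted p = 0.0779) except without replicate 3 of all groups (-0.55, adjusted p = 0.00584). Between wound-healing fibroblasts and MEFs, 3 members were lower and 2 higher in the contrast, a share near that of all genes (27.5% and 28.1%). The 2 higher include the sparse MYH11, which entered the model only through the groups where it was high. Without it MYL9 alone was higher. The change after editing was lower in wound-healing fibroblasts for ACTG2 (-1.42), TPM2 (-1.12) and TPM1 (-0.45), of which TPM2 had gone up in MEFs, and higher for MYL9 (0.74) and the sparse MYH11 (3.89). Without replicate 2 of all groups MYL9, MYH11 and TPM1 lost these calls (adjusted p = 0.139, 0.149 and 0.244), and without replicate 1 MYH11 and TPM1 did (0.0628 and 0.0924), while CALD1 then passed (-0.64, adjusted p = 0.0309). ACTA2, TAGLN, CNN1 and CALD1 did not pass (adjusted p = 0.744, 0.328, 0.152 and 0.0931). With library totals alone the split of all genes moved from 28.7% lower and 27.4% higher to 21.9% and 33% in the contrast of MMTV-CAFs with MEFs, and to 19.9% and 34% in that of wound-healing fibroblasts with MEFs, where TPM1 then lost its call (adjusted p = 0.216) and CNN1 passed (0.33, adjusted p = 0.00285). The same scaling moved the split in wound-healing fibroblasts against WT to 30.6% lower and 46.4% higher, and in MMTV-CAFs to 34.7% and 49%.

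**Figure D3:**
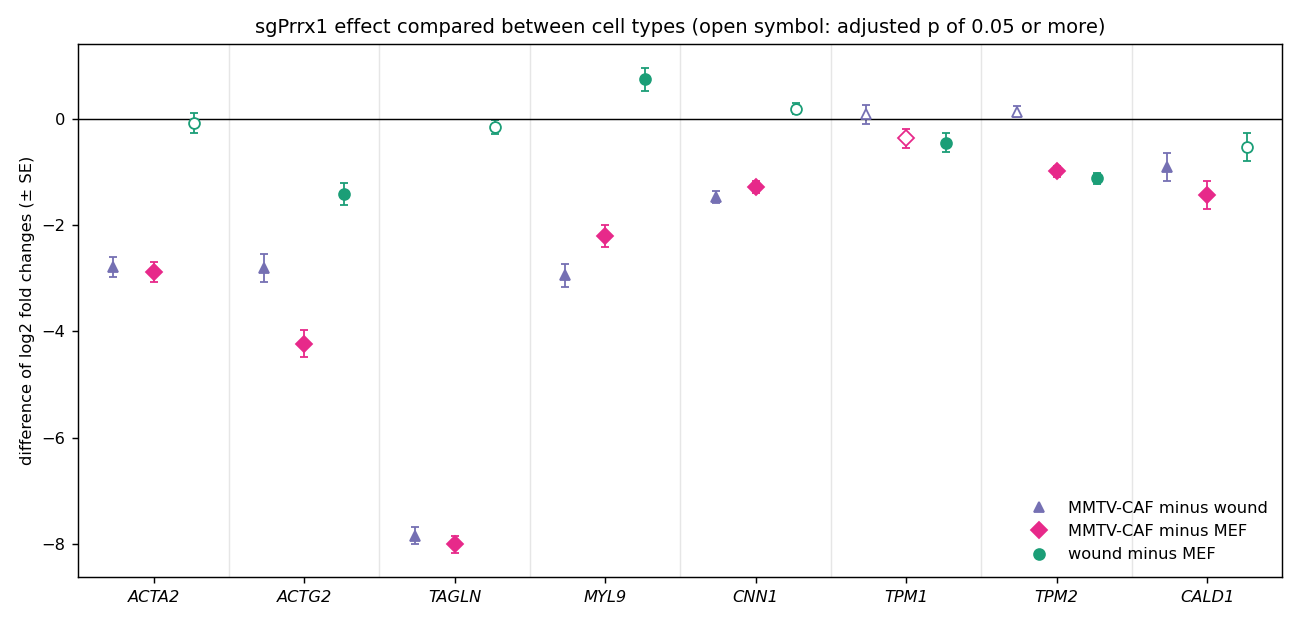
Difference between cell types in the sgPrrx1 effect on 8 contractile genes. The vertical axis gives the difference of log2 fold changes ± SE from one edgeR model of 21 cultures. TAGLN stands out at -7.84 and -8.00 where MMTV-CAFs are compared with the other cell types, and ACTA2 lies near 0 where wound-healing fibroblasts are compared with MEFs.

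The MEF models of Prrx1 loss were also compared with each other, as sgPrrx1 minus mutant. Of the members, 5 were lower and 3 higher in sgPrrx1 MEFs, against 32.7% and 30.2% of all genes, or 4 lower and 3 higher of 8 without the sparse MYOCD and MYH11. ACTA2 did not differ detectably (-0.02 ± 0.13, edgeR adjusted p = 0.932), with ranges of 1571 to 2549.9 CPM in the mutant and 1754 to 2363 in sgPrrx1 MEFs. The sgPrrx1 MEFs had more ACTG2 (1.50), TAGLN (0.40) and TPM2 (1.26). They had less CNN1 (-1.47), TPM1 (-0.82), CALD1 (-0.50) and MYL9 (-0.48), of which CALD1 and MYL9 lost their call with only these 6 cultures in the model (adjusted p = 0.182 and 0.118). CALD1 was at -0.07 without replicate 1 of all groups (adjusted p = 0.757) and MYL9 at -0.12 without replicate 3 (0.356). MYOCD, at 32 counts in the mutant and 2 in sgPrrx1 MEFs, was called lower as well (adjusted p = 0.0169), but entered the model only through the groups where it was high. Without replicate 1 of all groups ACTA2 was lower in sgPrrx1 MEFs (-0.30, adjusted p = 0.0368), and without replicate 2 the TAGLN call was lost (adjusted p = 0.0566). PRRX1 RNA was higher in sgPrrx1 than in mutant MEFs by 2.44 (adjusted p = 2.82e-12).

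Before any loss of Prrx1, the WT cell types already differed in most members, as in most genes. In the order that follows, 77.4%, 76.1% and 76.8% of all genes passed the test in either direction. The numbers of members called are near that of genes at large. WT wound-healing fibroblasts had less ACTA2 (-1.39 on the log2 scale), MYL9 (-0.71), CNN1 (-0.30) and MYH11 (-2.64) than WT MEFs, the MYH11 call resting on 15 against 82 counts and lost without replicate 1 or 2 of all groups (adjusted p = 0.0534 and 0.0547). They had more CALD1 (1.67), TPM1 (1.57), TAGLN (1.27), ACTG2 (0.90) and, less firmly, TPM2 (0.19, lost without replicate 2 or 3 of all groups at adjusted p = 0.0711 and 0.13). That is 4 lower and 5 higher, against 38.7% and 38.7% of all genes. MYH11 entered the model only through the groups where it was high. Without it ACTA2, MYL9 and CNN1 were lower and the same 5 higher. WT MMTV-CAFs against WT MEFs had 5 lower and 4 higher, against 35.5% and 40.6%, with ACTG2 (-1.82), ACTA2 (-1.01), MYL9 (-0.92), TPM2 (-0.87) and TAGLN (-0.74) down and CALD1 (1.86), CNN1 (1.28), TPM1 (0.83) and MYOCD up. MYOCD, at 0 counts in WT MEFs and 62 in WT MMTV-CAFs, entered the model only through the groups where it was high, and without it and MYH11 the count was 5 lower and 3 higher of 8. Against WT wound-healing fibroblasts they had 4 lower and 4 higher, against 36.8% and 40%. ACTG2 (-2.72), TAGLN (-2.02), TPM2 (-1.06) and TPM1 (-0.73) were lower there and CNN1 (1.57), ACTA2 (0.38), MYOCD and MYH11 higher. MYOCD, at 0 against 62 counts, and MYH11, at 15 against 85, entered only through the groups where they were high, and without them 4 were lower and 2 higher of 8. The MYH11 call was lost without any one replicate number, at adjusted p = 0.0956 to 0.126, and the ACTA2 call without replicate 2 (0.195). These WT contrasts carry strain along with cell type wherever MMTV-CAFs enter.

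Further genes of the contractile program, from lists that do not include the 10, were read beside them. Among 31 other smooth muscle contractile and structural genes, 14 lower and 7 higher of 30 tested were called in mutant MEFs, 11 lower and 3 higher of 29 in sgPrrx1 MEFs, 16 lower and 13 higher of 30 in wound-healing fibroblasts and 23 lower and 3 higher of 30 in MMTV-CAFs. The medians were -0.28, -0.15, -0.09 and -1.07 on the log2 scale. Over all genes the shares were 30.5%, 22.8%, 39.3% and 41.9% lower and 29.4%, 20.3%, 38.3% and 41.2% higher in the same order. Among the genes that reached the filter's level in both groups, the counts were 13 lower and 7 higher of 28, 10 and 3 of 28, 15 and 12 of 28 and 21 and 3 of 28. MYLK, the kinase that phosphorylates the myosin light chain, fell most in both MEF models, from 15.9 ± 1.85 CPM in WT to 2.5 ± 0.271 in mutant and 1.17 ± 0.0625 in sgPrrx1 MEFs (log2 fold change -2.69 ± 0.14, edgeR adjusted p = 1.01e-05, and log2 fold change -3.77 ± 0.13, edgeR adjusted p = 7.4e-06). In MMTV-CAFs MYLK changed by only -0.33. SYNPO2, an actin-bundling protein of the Z-disc, went there from 1.61 ± 0.109 to 0.101 ± 0.0353 CPM, having passed the filter through WT alone, and the largest rise was that of the intermediate filament gene SYNM (2.16). In wound-healing fibroblasts PDLIM3, a partner of alpha-actinin, went from 2.67 to 0.00715 CPM, having passed the filter through WT alone, and LDB3 rose (1.84). CSRP2, a LIM protein of smooth muscle, rose in mutant MEFs (2.23), TAGLN2, the non-muscle relative of TAGLN, in sgPrrx1 MEFs (0.61), and filamin A (FLNA) was the most abundant gene of the list, at -0.79 in mutant MEFs and -1.65 in MMTV-CAFs.

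The 8 genes of non-muscle actin and myosin II, which every cell uses for its cortex and stress fibres, were called 2 lower and 2 higher of 8, 2 lower and 1 higher of 7, 4 lower and 4 higher of 8 and 7 lower and 0 higher of 8 in the same order, beside 30.5%, 22.8%, 39.3% and 41.9% of all genes lower. The shares of all genes called higher were 29.4%, 20.3%, 38.3% and 41.2%. In MMTV-CAFs the non-muscle myosin heavy chain MYH9 fell by 1.81 on the log2 scale (edgeR adjusted p = 3.32e-10), and beta actin (ACTB), the most abundant gene of the list, went from 5366 ± 53.3 to 3523 ± 28.1 CPM (log2 fold change -0.63 ± 0.013, edgeR adjusted p = 2.92e-09). These falls were smaller than that of ACTA2 at -3.93. In wound-healing fibroblasts MYH9 rose slightly (0.28) while MYH14 fell (-1.46). MEFs showed ACTG1 lower in the mutant (-0.54) with MYH14 at 0.047 CPM in WT and 2.03 in the mutant, through which alone it passed the filter, and MYL12B lower (-0.53) with MYL12A higher (0.41) in sgPrrx1 cultures.

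Regulators of the program were read from 17 listed genes for serum response factor, its coactivators and their cofactors. They were called 4 lower and 5 higher of 16 in mutant MEFs, 2 lower and 3 higher of 15 in sgPrrx1 MEFs, 4 lower and 10 higher of 16 in wound-healing fibroblasts and 12 lower and 2 higher of 16 in MMTV-CAFs, beside 30.5%, 22.8%, 39.3% and 41.9% of all genes lower and 29.4%, 20.3%, 38.3% and 41.2% higher. In MMTV-CAFs FHL1 and SCX passed the filter through WT alone, so they had to be lower. Among the genes at the filter's level in both groups, 10 were lower and 2 higher of 14 there. In mutant MEFs the counts were then 4 lower and 4 higher of 15. SRF itself changed by -0.64, 0.61 and -0.54 in mutant MEFs, wound-healing fibroblasts and MMTV-CAFs (adjusted p = 0.0134, 2.53e-08 and 3.93e-07) and did not pass in sgPrrx1 MEFs (-0.12, adjusted p = 0.511). FHL1, a LIM-only protein and the most abundant gene of the list in MEFs, went from 80.7 ± 1.54 to 0.118 ± 0.0346 CPM in MMTV-CAFs, where it passed the filter through WT alone, and changed by -0.75 in wound-healing fibroblasts. KLF4, a repressor of smooth muscle genes, changed by -3.06 in mutant MEFs, 0.44 in sgPrrx1 MEFs, 1.63 in wound-healing fibroblasts and -1.43 in MMTV-CAFs. The other extremes were MEF2C, at 0.0528 CPM in WT and 1.83 in mutant MEFs, which passed the filter only through the mutant, TEAD3, lower in sgPrrx1 MEFs (-0.40), and ELK3, higher in MMTV-CAFs (0.64). None of these lists was set against other gene sets.

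**Figure D4:**
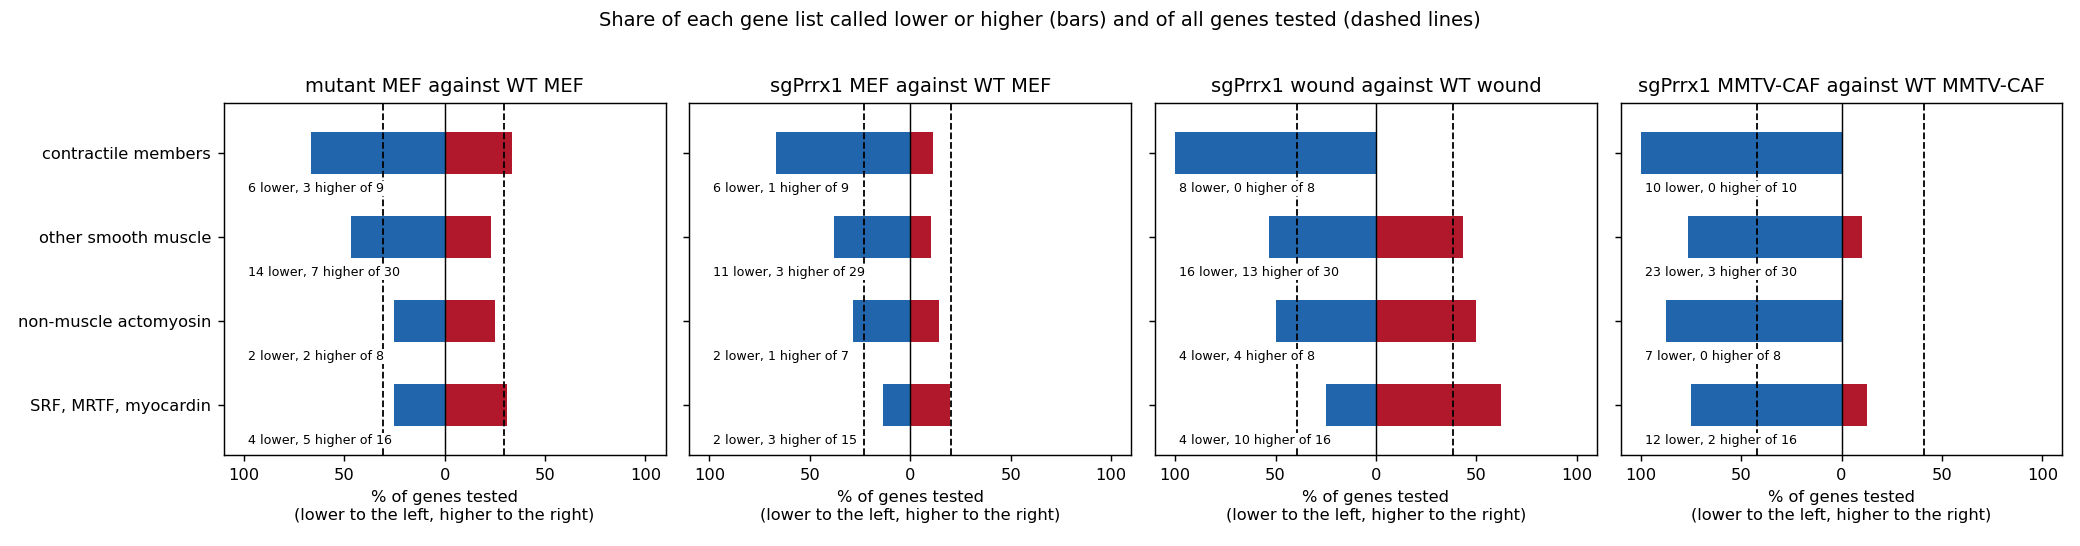
Share of tested genes called lower (bars to the left) and higher (bars to the right), in percent, for the 10 contractile genes and 3 related lists in each comparison with WT, with dashed lines for all genes tested. The contractile genes reach 100% lower in wound-healing fibroblasts and MMTV-CAFs, while genes of the serum response factor list lean to the right in the first and to the left in the second, and the small TPM1 and CALD1 changes counted here reverse or lose their call when only library totals set the scale.

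Markers of other cells that a contractile signal could come from moved in some of the same comparisons. Fibroblast markers were called 9 lower and 1 higher of 10 tested in mutant MEFs, 9 lower and 1 higher of 10 in sgPrrx1 MEFs, 11 lower and 1 higher of 12 in wound-healing fibroblasts and 9 lower and 2 higher of 11 in MMTV-CAFs. Over all genes the shares were 30.5%, 22.8%, 39.3% and 41.9% lower and 29.4%, 20.3%, 38.3% and 41.2% higher in the same order, and they stand beside the pericyte counts as well. DCN in mutant MEFs, LUM and FAP in wound-healing fibroblasts and LUM in MMTV-CAFs passed the filter through WT alone. Their summed level was 16424 ± 400.1, 11556 ± 1328 and 13569 ± 1132 CPM in WT, mutant and sgPrrx1 MEFs. It was 11841 ± 54.2 and 6963 ± 46.6 CPM in WT and sgPrrx1 wound-healing fibroblasts and 41972 ± 518 and 21425 ± 81.1 in MMTV-CAFs. COL1A1, COL1A2 and COL3A1 had no group mean under 107 CPM, but other markers of the list were low or fell steeply. DCN went from 48.8 ± 5.22 CPM in WT to 0.142 ± 0.0814 in mutant MEFs and PDGFRA from 142 ± 10.9 to 16.6 ± 0.623 in sgPrrx1 MEFs, while THY1 went from 57.3 ± 2.53 to 0.641 ± 0.0505 in MMTV-CAFs. LUM was at a trace in WT wound-healing fibroblasts (0.158 ± 0.0535 CPM) and at 0 after editing. COL1A1 fell from 10464 ± 83.2 to 3493 ± 22.5 CPM in MMTV-CAFs, while DCN rose there from 32.4 ± 0.776 to 588 ± 8.7.

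Pericytes, contractile cells of small vessels that also express ACTA2, TAGLN and MYL9, were the nearest other source. Their 9 markers summed to 322 ± 26.3, 158 ± 21.9 and 218 ± 23.0 CPM in WT, mutant and sgPrrx1 MEFs, to 58.6 ± 1.18 and 68.0 ± 1.45 in wound-healing fibroblasts and to 72.1 ± 0.347 and 12.0 ± 0.0576 in MMTV-CAFs. Of 6 tested, 6 were lower in sgPrrx1 MEFs and 6 in MMTV-CAFs, 2 in mutant MEFs (1 higher) and 2 in wound-healing fibroblasts (3 higher). In sgPrrx1 MEFs 3 of these 6 (DES, KCNJ8 and NOTCH3) and in MMTV-CAFs 1 (DES), named after their values were seen, passed the filter through WT alone. So did DES in mutant MEFs, while RGS5 passed in wound-healing fibroblasts through the sgPrrx1 group alone. Among the genes at the filter's level in both groups, 1 was lower and 1 higher of 5 in mutant MEFs. In wound-healing fibroblasts 2 were lower and 2 higher of 5. CSPG4, which fibroblasts also express, made up most of the sum in MEFs and WT MMTV-CAFs, where it went from 47.7 ± 0.306 to 4.96 ± 0.0179 CPM. RGS5, the most specific of them, stayed at or under 1.65 CPM in every group mean, and MCAM ranged from 4.2 to 47.0. The part of pericyte-like cells in the contractile changes was not tested.

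Epithelial markers were nearly absent apart from keratins, with EPCAM, CDH1 and KRT5 at or under 0.503 CPM in every group mean. KRT19 made up most of their sum, at 12.3 ± 0.579 CPM in WT and 219 ± 20.8 in mutant MEFs, and at 52.9 ± 1.08 in WT and 0.184 ± 0.0341 in sgPrrx1 MMTV-CAFs. The list was split in mutant MEFs, where 2 of 5 tested were lower and 3 higher, beside 30.5% and 29.4% of all genes. KRT14 fell furthest there and KRT18 rose furthest, but 4 of the 5, both of these included, passed the filter through a single group. The summed epithelial level was 18.9 ± 1.18, 219.8 ± 20.9 and 27.2 ± 2.31 CPM in the MEF groups, 57.1 ± 2.65 and 68.2 ± 2.3 in wound-healing fibroblasts and 53.1 ± 1.06 and 0.275 ± 0.0679 in MMTV-CAFs. Myoepithelial cells of the mammary gland express ACTA2 with KRT5 and KRT14, and in WT MMTV-CAFs these keratins were at 0 and 0.136 CPM. Endothelial markers were low except KDR, which went from 290.3 ± 3.12 to 142 ± 2.77 CPM in wound-healing fibroblasts, where PECAM1 was at 0 and CDH5 at or under 0.0994. Their sum was 4.08 ± 0.489 CPM in WT and 0.908 ± 0.14 in sgPrrx1 MMTV-CAFs.

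Leukocyte markers summed to between 14.7 and 27.5 CPM over the group means, most of it CD14, with PTPRC and ADGRE1 at or near 0. Of 5 tested in MMTV-CAFs, 3 were lower, CSF1R the furthest, and 1, CD14, was higher, beside 41.9% and 41.2% of all genes. In wound-healing fibroblasts 2 of 4 were higher and none (0) lower, beside 38.3% and 39.3%. LYZ2 rose furthest there, having passed the filter through the sgPrrx1 group alone. Of the adipocyte markers, FABP4 rose in MMTV-CAFs from 6.89 ± 0.328 to 186 ± 4.07 CPM (log2 fold change 4.73 ± 0.043, edgeR adjusted p = 6.13e-11), while ADIPOQ and PLIN1 were at or near 0 in every group. Striated muscle genes, the other muscle program, summed to at most 48.8 CPM, in sgPrrx1 wound-healing fibroblasts, where TNNT2 was at 31.3 ± 0.393 CPM against 7.52 ± 0.446 in WT and 6 of 9 tested were higher, beside 38.3% of all genes. In mutant MEFs 4 of 7 were lower beside 30.5% of all genes, in sgPrrx1 MEFs 5 of 9 beside 22.8%, and in MMTV-CAFs 7 of 9 beside 41.9%. Some of these are traces that passed the filter through the higher group alone, so that their direction was fixed, NEB in sgPrrx1 MEFs, MYL7 in wound-healing fibroblasts and ACTA1, TNNT3 and TNNI1 in MMTV-CAFs, named here after their values were seen. Among the genes at the filter's level in both groups, 4 of 6 were lower in sgPrrx1 MEFs and 4 of 6 in MMTV-CAFs. There the skeletal actin ACTA1 went from 2.47 ± 0.176 to 0.0806 ± 0.0359 CPM and ACTC1 was at 0 in both MMTV-CAF groups. What part RNA of these other cell types had in the contractile values was not tested.

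The members were not a single block across cultures. In log2 CPM over the 21 cultures, ACTA2 followed MYL9 most closely (Pearson r = 0.949), then ACTG2 (0.838), TAGLN (0.82), TPM2 (0.656) and CNN1 (0.548), while CALD1 (-0.222) and TPM1 (-0.315) did not follow it. TPM1 and CALD1 followed each other (0.814). TAGLN was closest to MYL9 (0.932) and ACTG2 (0.912). These values describe 21 cultures that fall into 7 groups and 3 count tables, so no p is given.

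The genes outside the set whose pattern was most like that of ACTA2 among 15092 others were SREBF1 (r = 0.973), VGLL3 (0.967), KHDRBS3 (0.966), SGSH (0.961) and MFAP3L (0.959). SREBF1, a regulator of lipid synthesis, was at 119 ± 9.99 CPM in WT and 43.2 ± 3.91 in sgPrrx1 MMTV-CAFs, and in mutant MEFs, where ACTA2 fell, it did not pass (log2 fold change -0.15 ± 0.10, edgeR adjusted p = 0.223). VGLL3, a cofactor of TEAD factors, was at 232 ± 28.0 CPM in WT MEFs, 147 ± 16.5 in mutant and 164 ± 15.9 in sgPrrx1 MEFs, and at 64.5 ± 0.351 in sgPrrx1 MMTV-CAFs against 182 ± 1.98 in WT. KHDRBS3, an RNA-binding protein, went from 16.5 ± 0.521 to 0.878 ± 0.0619 CPM in MMTV-CAFs. All 5 had their lowest group mean in the sgPrrx1 MMTV-CAFs, where ACTA2 was lowest too. Since the 5 were chosen for following ACTA2 over these same cultures, that shared low is no separate result.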

How the data were processed

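RNA of the 21 cultures was prepared with a poly(A) kit that does not mark strand and sequenced as paired ends. Per the labels and the study's methods, the authors trimmed reads with Trimmomatic, aligned them with STAR to mm10 and counted them with HTSeq; the deposited values are unnormalized whole-number counts per gene in 3 tables, and the annotation and strand setting of the counting are not given in the sources used here. Because the libraries are unstranded, reads of a gene and of an antisense partner cannot be told apart. The methods end with a ComBat-seq batch correction, without saying whether it covered these mouse counts.

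Each comparison with WT was fitted on its own 6 cultures in edgeR 4.0.16 (R 4.3.3, limma 3.58.1) with TMM factors, filterByExpr, glmQLFit and glmQLFTest, with Benjamini-Hochberg adjustment over all genes tested and a threshold of 0.05. Differences between cell types and between WT groups, and all levels, came from 21 cultures over the 24447 shared symbols. Members and lists were chosen with earlier results of these data known. Results of 1 further list are not reported here. From each list the called gene with the largest fall and rise in each comparison, the most abundant gene and the first markers were named, and the 5 genes most correlated with ACTA2. RefSeq supplied promoters, and Gencode M1 exon lengths. The edgeR steps were tested on simulated data. Alternatives were DESeq2 1.42.0, other scalings and filters, a replicate block, a 2-fold threshold, all 21 cultures in one model, and leaving out cultures. Summaries used Python 3.11.15 with pandas 2.3.3 and matplotlib 3.10.9. Depth was 69588655 to 134790440 counts per culture, so counting error is small for all members but MYH11, MYOCD and, in sgPrrx1 MMTV-CAFs, ACTG2.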

Additional observations from a re-analysis of the deposited data

Results flagged for a closer look

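The sgPrrx1 effect on 19 of 30 member values compared between cell types differed by the test of the difference itself in one edgeR model of all 21 cultures, while 63%, 56.1% and 55.6% of all genes did so in the 3 contrasts that follow, so that the number is near that of genes at large. In MMTV-CAFs minus wound-healing fibroblasts the difference of log2 fold changes was -7.84 for TAGLN, -2.94 for MYL9, -2.81 for ACTG2, -2.79 for ACTA2, -1.47 for CNN1 and -0.90 for CALD1. In MMTV-CAFs minus MEFs it was -8.00 for TAGLN, -4.23 for ACTG2, -2.88 for ACTA2, -2.21 for MYL9, -1.43 for CALD1, -1.29 for CNN1 and -0.99 for TPM2, and for MYOCD, with no counts in WT MEFs, only the adjusted p of 0.0203 is given, a call fixed by its presence in other groups alone. In wound-healing fibroblasts minus MEFs it was -1.42 for ACTG2, -1.12 for TPM2, -0.45 for TPM1, 0.74 for MYL9 and 3.89 for MYH11, which rests on sums of 12 to 82 counts per group. MYH11 also entered the model only through the groups where it was high. MMTV-CAFs differ from the other cell types in strain as well, and these cannot be told apart. With 3 cultures per group, no single culture was tested as lying far from the others of its group.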

How the results depend on the processing

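Of the changes of single members against WT recomputed under the alternatives, 565 kept their direction and side of the threshold, 54 lost and 7 gained the call, and 2 reversed: with library totals alone CALD1 in wound-healing fibroblasts was 0.0098 (adjusted p = 0.559) and TPM1 in MMTV-CAFs 0.064 (adjusted p = 0.049). That scaling put the median of all genes at 0.119 in wound-healing fibroblasts and 0.13 in MMTV-CAFs. The same scaling gave 1 member higher in MMTV-CAFs, beside 49% of all genes. Of the differences in the model of 21 cultures, 534 kept direction and side, 26 lost and 6 gained the call. With at least a 2-fold change required, 3 members were lower and 1 higher in mutant MEFs, none (0) was higher in sgPrrx1 MEFs and 2 were lower in wound-healing fibroblasts, beside 14.5% of all genes lower and 9.64% higher, 1.58% higher and 7.06% lower. All 21 cultures in one model gave 2 higher in sgPrrx1 MEFs, beside 26.3% of all genes. A model of only the cultures compared gave 2 lower in sgPrrx1 against mutant MEFs, beside 28.4% of all genes. For WT MMTV-CAFs against WT wound-healing fibroblasts that smaller model gained 2 calls, beside 44.3% of all genes lower and 43.5% higher. They were MYL9, lower at -0.27 (edgeR adjusted p = 5.95e-05), and CALD1, higher at 0.12 (edgeR adjusted p = 0.000125). Leaving out cultures gave 4 to 6 lower and 1 to 3 higher in mutant MEFs, beside 18.1% to 30.1% and 14.2% to 30.6% of all genes. In sgPrrx1 MEFs it gave 4 to 6 lower and 0 to 2 higher, beside 9.16% to 24.5% and 3.24% to 22.6%. It gave 0 to 2 higher for wound-healing fibroblasts minus MEFs, beside 18.5% to 26%. For sgPrrx1 against mutant MEFs 3 to 4 were lower, beside 24.2% to 32.6%. For WT MMTV-CAFs against WT wound-healing fibroblasts 2 to 3 were higher, beside 32.9% to 38.5%. The causes were not tested. ACTA2, ACTG2, TAGLN, MYL9, CNN1 and TPM2 kept their calls in wound-healing fibroblasts and MMTV-CAFs under every alternative but the 2-fold threshold.

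Replicate numbers did not pair the samples throughout, since deviations of same-numbered cultures correlated between -0.253 and 0.203. The same-numbered WT culture was the best match only for sgPrrx1 MEF replicates 1 and 3 (0.101 and 0.203) and sgPrrx1 MMTV-CAF replicate 3 (0.0376). A replicate block gave 5 members lower and 1 higher in mutant MEFs, beside 24.7% and 22.7% of all genes. In sgPrrx1 MEFs it gave 5 lower and 3 higher, beside 25.5% and 24%. It gave 3 higher for WT MMTV-CAFs against WT wound-healing fibroblasts, beside 39.4% of all genes. Depth limits MYH11 and MYOCD, at 0 to 31 counts per culture, and ACTG2 in sgPrrx1 MMTV-CAFs, at 23 to 33.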
